A study of Rattus norvegicus with 32 samples.

Results

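A set of 10 genes that mark Kupffer cells, the resident macrophages of the liver, and macrophages in general were followed through a series of rat liver RNA libraries. The members were taken by their symbols, Cd68, Cd163, Clec4f, Marco, Csf1r, Cd14, Vsig4, C1qa, C1qb and C1qc, from a table of raw read counts. All 10 were among its 17327 genes, and all 10 were among the 11002 genes that passed the filter on low counts. The study sequenced messenger RNA from the livers of 32 Charles River Sprague Dawley rats, 4 in each of 8 groups, under basal conditions. Knockout (KO) rats lacked a working Serpina6 gene, disrupted by CRISPR/Cas9 editing, and wild-type (WT) rats served as controls. Serpina6 encodes corticosteroid-binding globulin, which the liver secretes and which carries corticosterone in blood. Males and females of both genotypes were sampled at 30 and at 60 days of age. Levels are CPM, read counts scaled to a common total of gene reads, after scaling between libraries by the trimmed mean of M-values (TMM).

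Kupffer cells line the liver sinusoids, where they take up particles, microbes, worn red cells and lipoproteins from portal blood. Their identity depends on signalling through the Csf1 receptor and on lineage factors such as PU.1 (Spi1), LXR-alpha (Nr1h3) and Id3. Glucocorticoids act on macrophages too, and Cd163 is a known glucocorticoid-induced macrophage gene. The members have distinct roles. Clec4f is a lectin that in rodents marks Kupffer cells, and Vsig4 is a complement receptor for C3 fragments. Marco is a scavenger receptor for bacteria and particles, Cd163 takes up haptoglobin-haemoglobin complexes, and Cd14 is the co-receptor that passes lipopolysaccharide to Tlr4. Csf1r is the growth factor receptor, Cd68 a lysosomal membrane protein, and C1qa, C1qb and C1qc encode the chains of complement C1q.

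The upstream sequences of Marco, C1qa and C1qb are shown because Marco fell with age while C1qa and C1qb rose with age in WT females. Between rats of the same group Marco varied with C1qa and C1qb, at Pearson's r of 0.813 and 0.822. RefSeq promoter entries of build GRCr8 were matched by symbol for 9 of the 10 members, all but C1qc. Each run is the 250 bases before the annotated start, 5′ to 3′ on the gene's strand. Capitals mark a PU box (GAGGAA, bound by PU.1), a MAF core (TGCTGA) or the palindromic glucocorticoid response element core, each searched on both strands.
Marco, minus strand, chr13:34201256-34201505: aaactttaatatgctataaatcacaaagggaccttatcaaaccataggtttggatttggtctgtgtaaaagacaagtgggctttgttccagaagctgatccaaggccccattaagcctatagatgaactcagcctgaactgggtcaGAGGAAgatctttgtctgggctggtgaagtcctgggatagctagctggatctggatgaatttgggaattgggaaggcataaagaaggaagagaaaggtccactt
C1qa, minus strand, chr5:154419934-154420183: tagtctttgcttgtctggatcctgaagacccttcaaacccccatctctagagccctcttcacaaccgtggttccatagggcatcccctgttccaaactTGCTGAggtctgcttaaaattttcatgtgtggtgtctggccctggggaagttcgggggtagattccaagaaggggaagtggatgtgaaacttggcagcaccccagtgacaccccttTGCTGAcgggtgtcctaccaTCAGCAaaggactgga
C1qb, minus strand, chr5:154407828-154408077: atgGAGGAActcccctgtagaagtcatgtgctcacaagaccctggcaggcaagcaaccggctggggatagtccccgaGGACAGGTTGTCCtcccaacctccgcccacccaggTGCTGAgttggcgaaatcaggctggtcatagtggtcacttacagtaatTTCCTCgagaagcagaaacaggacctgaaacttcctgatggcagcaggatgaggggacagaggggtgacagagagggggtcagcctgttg

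A PU box stood in 5 of the 9 member promoters (C1qb, Cd14, Cd68, Csf1r and Marco) and in 23.3% of the 33469 promoters of the table. The Marco match began 104 bases before the start, and the C1qb matches 247 and 90 bases before it. The MAF core stood in C1qa and C1qb, 2 of 9 members, and in 15.1% of all promoters. Its matches began 152, 36 and 16 bases before the start of C1qa and 138 bases before that of C1qb. The glucocorticoid element core stood in C1qb, 1 of 9 members, beginning 173 bases before the start, and in 0.373% of all promoters. The C/EBP core TTGCNNAA stood in 0 of 9 members and in 9.22% of all promoters. No match of one motif overlapped a match of another in these promoters. These are letter matches in a fixed window and not measured sites.

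The libraries held 12951969 to 21954929 gene reads, from 16806943 upward in the younger rats and up to 17133332 in the older, and the number of rats limits the precision more than the depth. Serpina6 was lower in all KO groups, with log2 fold changes of -4.00 to -2.95, and KO and WT libraries did not overlap in any of the 4 pairs. The KO libraries still held 25.5 to 131 CPM of Serpina6 reads. No batch was labelled, the title forms differed between the ages, and the 30-day libraries were the deeper ones, so age and any handling that differed between the 2 ages cannot be told apart.

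Other Kupffer cell genes were set beside the members, as a description. Of 11 further Kupffer cell genes, 10 were in the table and passed the filter, among them Adgre1 (F4/80), Mrc1, Cd5l and Siglec1. In WT females at 30 days Adgre1 stood at 17.8 ± 3.31 CPM (SD, n = 4), and in WT females at 60 days Mrc1, the mannose receptor, stood at 93.6 ± 20 CPM. Monocyte and neutrophil genes were low: the 8 measured summed to 0.880 to 9.24 CPM per library. The 6 dendritic cell markers measured summed to 52.9 to 198 CPM per library. These levels do not tell which cells the reads came from. Together the 10 members took 0.0368% to 0.0984% of gene reads, with 5528 to 16148 reads per library. In whole liver, fewer macrophages and less of the messenger RNA per macrophage cannot be told apart.

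**Figure D1:**
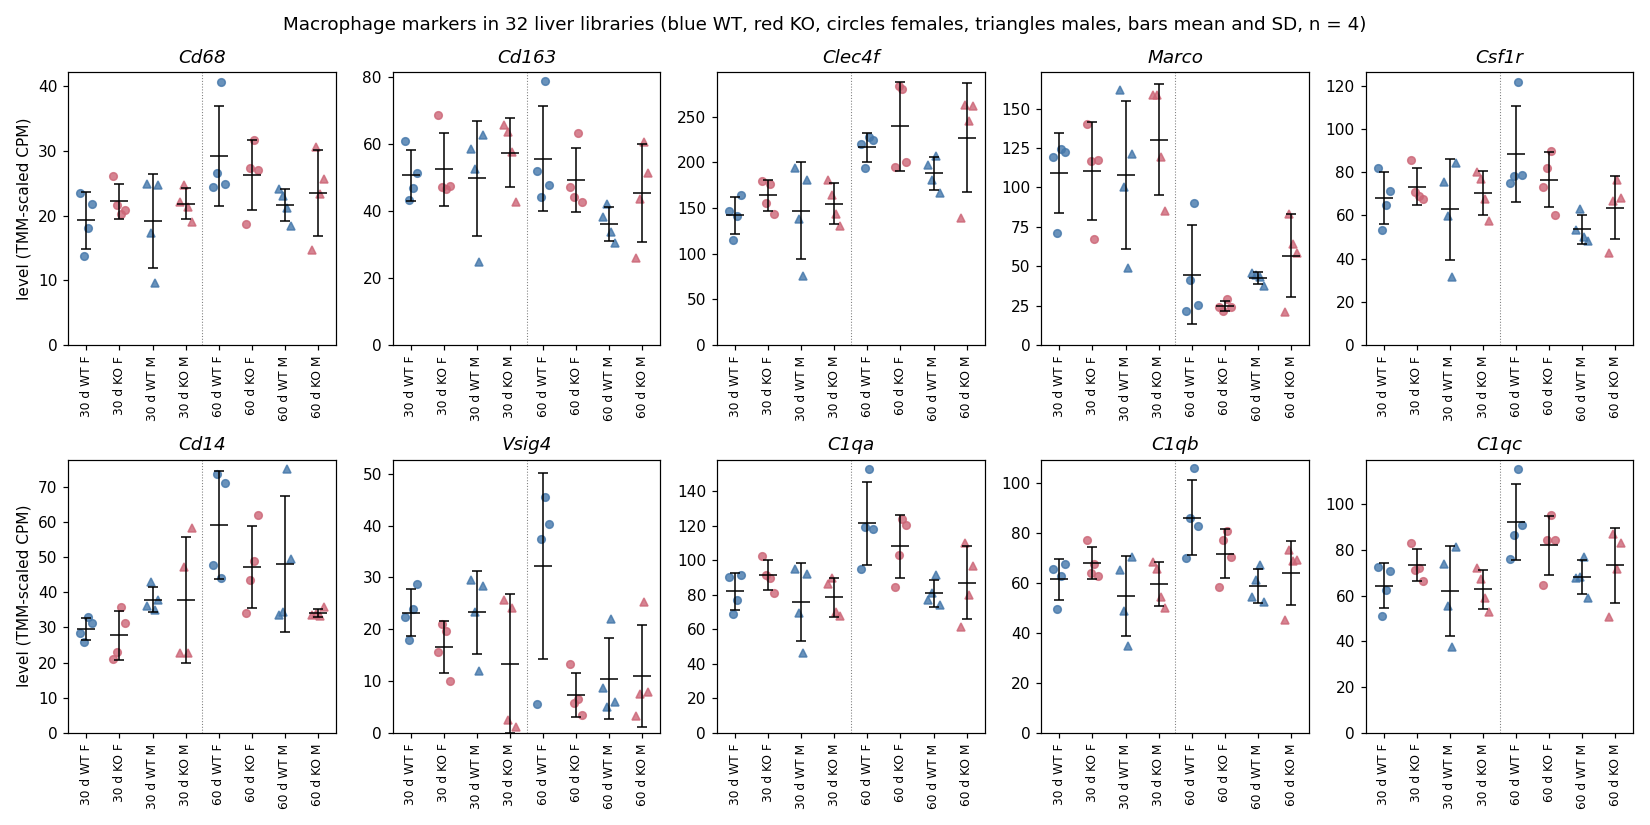
Level of each member (TMM-scaled CPM, vertical axis from 0) in each of the 32 libraries by group, with blue for WT, red for KO, circles for females, triangles for males, and bars for the group mean and SD (n = 4). Marco lies lower at 60 days in each sex and genotype, Clec4f lies higher on average, and Vsig4 spans 1.17 to 45.5 CPM.

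The summed level of the members describes these 10 genes as a set in each group. It weights each member by its level, and Marco and Clec4f moved in opposite directions with age. The sum is therefore not a measure of the macrophage share of liver messenger RNA. At 30 days the mean sums were 650 ± 97.3 CPM in WT females and 699 ± 68.4 in KO females, and 640 ± 210.1 in WT males and 687 ± 103 in KO males (SD, n = 4 each). At 60 days they were 825 ± 142 CPM in WT females, 732 ± 102 in KO females, 608 ± 60.2 in WT males and 685 ± 167 in KO males. The WT and KO ranges overlapped in every pair of sex and age. Between 60-day WT females and males the ranges just met, from 687 to 1023 CPM in females and from 541 to 687 in males. Most extremes lay in 2 libraries. The library of 30-day WT male replicate 3 was the lowest of all 32 for 7 of the 10 members, with a sum of 356 CPM. That of 60-day WT female replicate 3 was the highest for 7 of them, with a sum of 1023 CPM.

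Whether the loss of corticosteroid-binding globulin changed liver macrophage markers was asked by comparing KO with WT rats in each sex and at each age. No member passed the test in any of the 4 pairs (edgeR quasi-likelihood test, Benjamini-Hochberg adjusted p below 0.05 over 11002 genes). The count was 0 of 10 in 30-day females, where 0.3% of all genes tested were called, and 0 of 10 in 30-day males, where 0.0545% were. It was 0 of 10 in 60-day females, where 6.77% of all genes were called, and 0 of 10 in 60-day males, where 0.209% were. At an unadjusted p below 0.05 the members numbered 0, 0, 2 and 0 in those pairs, the 2 being Vsig4 and Marco in 60-day females. DESeq2 called 1, Vsig4 in 60-day females, and limma-voom called 0.

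For the resident marker Clec4f the genotypes overlapped in every pair. In 60-day females its levels were 220, 194, 228 and 224 CPM in WT and 194, 283, 280 and 200 CPM in KO. The groups overlapped, and the log2 fold change was 0.15 ± 0.21 (SE). In the other pairs it was 0.21 ± 0.21 in 30-day females, 0.08 ± 0.21 in 30-day males and 0.27 ± 0.21 in 60-day males. For Cd163, the haemoglobin scavenger receptor and glucocorticoid-induced gene, the changes ran from -0.17 ± 0.25 in 60-day females to 0.33 ± 0.25 in 60-day males. In 60-day females Cd163 stood at 51.9, 44.0, 78.7 and 47.7 CPM in WT and at 47.0, 44.2, 63.3 and 42.6 in KO, with every KO library inside or just below the WT range.

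The C1q genes did not part the genotypes either. C1qb in 60-day females stood at 69.9, 86.1, 105.9 and 82.9 CPM in WT and at 58.5, 77.2, 80.7 and 70.5 in KO. The ranges overlapped, with a log2 fold change of -0.26 ± 0.17 and an adjusted p of 0.406 (edgeR). Over the 4 pairs C1qa lay between -0.17 and 0.16, C1qc between -0.17 and 0.19, Csf1r between -0.21 and 0.24 and Cd68 between -0.15 and 0.20. Their standard errors were between 0.17 and 0.24, as large as most of the differences themselves.

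Marco, the bacterial scavenger receptor, was low in the KO females of 60 days. Its levels there were 24, 21.7, 29 and 24.4 CPM, against 21.9, 41.0, 90.3 and 25.7 CPM in WT females. KO replicate 2 lay just below the WT range and the other 3 KO libraries in its lower part, and the WT mean rested on replicates 2 and 3. The log2 fold change was -0.86 ± 0.40 with an adjusted p of 0.224 (edgeR).

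Vsig4, the complement receptor, gave the largest single difference between genotypes among the members. In 60-day females it stood at 5.59, 37.4, 45.5 and 40.3 CPM in WT and at 13.3, 5.67, 6.58 and 3.48 CPM in KO. In WT, 3 libraries lay above all KO libraries and WT replicate 1 lay among them. The log2 fold change was -2.17 ± 0.75 with an adjusted p of 0.0835 in edgeR. Of the 8 edgeR fits without 1 library 1 called it, that without WT replicate 1 (adjusted p = 0.0304). Without KO replicate 4 the edgeR adjusted p was 0.177. Of 9 other settings 1 called it, DESeq2 on all libraries (adjusted p = 0.0390). In 60-day males, where WT stood at 8.62, 5.04, 21.9 and 6.01 CPM and KO at 3.16, 7.54, 25.3 and 7.78, the log2 fold change was 0.08 ± 0.75. The sex-by-genotype term for Vsig4 at 60 days was 2.24 ± 1.05 with an adjusted p of 0.456 (edgeR).

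**Figure D2:**
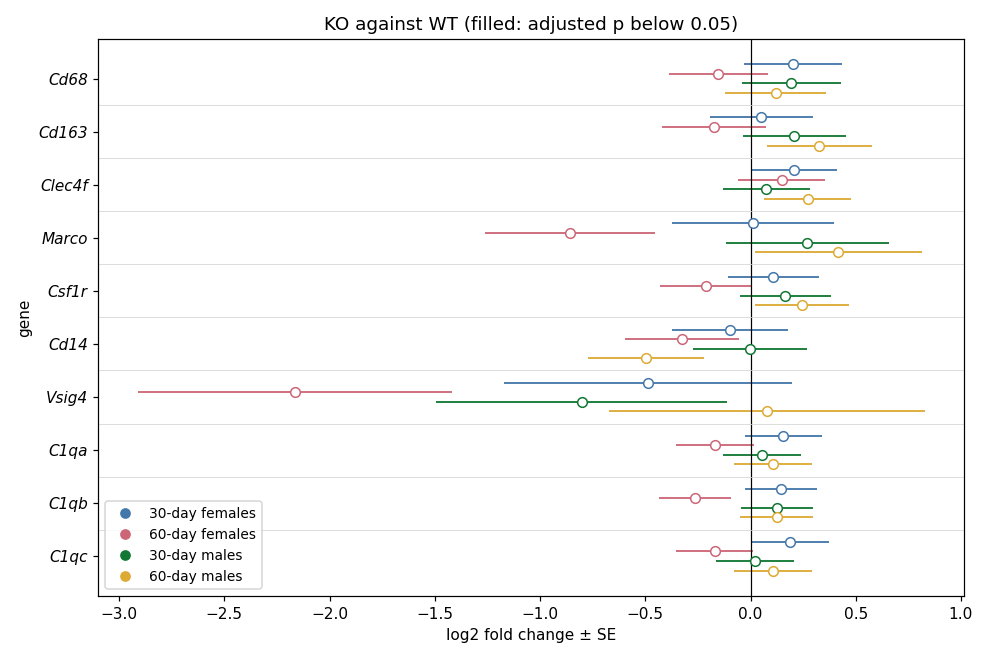
Log2 fold change of KO against WT (horizontal axis, with its SE) for each member in the 4 pairs of sex and age, with filled points for an adjusted p below 0.05. All 40 points are open. Vsig4 in 60-day females lies farthest from 0, at -2.17.

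Averaged over the 4 pairs, a contrast chosen after seeing the data, 0 of 10 members were called, where 3.12% of all genes tested were. At an unadjusted p below 0.05 there was 1, Vsig4, at -0.84 ± 0.36 and an adjusted p of 0.201 (edgeR), and DESeq2 and limma-voom called 0. The averaged change was 0.18 ± 0.10 for Clec4f, 0.10 ± 0.12 for Cd163, -0.04 ± 0.20 for Marco and -0.23 ± 0.14 for Cd14. For C1qa, C1qb and C1qc it was 0.04, 0.03 and 0.04, each with an SE of 0.09. The median over the members was 0.04, beside 0.01 over all genes tested.

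The interaction terms ask whether the genotype difference depended on sex or age. None of the 10 members was called for sex by genotype at 30 days (0% of all genes), sex by genotype at 60 days (0.136%), age by genotype in females (2.96%) or age by genotype in males (0.00909%). At an unadjusted p below 0.05 the counts were 0, 2, 0 and 0, the 2 being Marco and Vsig4, and DESeq2 and limma-voom called 0 in each. For age by genotype in females all 10 members had a negative term, with a median of -0.34 beside 0.00 over all genes. Those 10 terms are not independent, since the members vary together between libraries.

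Genes of the members' pathways were counted beside the share of all genes called in the same pairs, 0.3% and 0.0545% in 30-day females and males and 6.77% and 0.209% in 60-day females and males. With so few genes called in all, the low counts that follow set no list apart. Of the 10 other Kupffer cell genes tested, 0 were called in any KO against WT pair, and Adgre1 changed by -0.14 ± 0.20 in 60-day females and 0.25 ± 0.20 in 60-day males. Of 10 macrophage transcription factors 1 was called, Cebpb, which fell by 1.01 ± 0.17 on the log2 scale in 60-day males (37.4 ± 6.77 CPM in KO, 75.2 ± 6.96 in WT, edgeR adjusted p = 0.00792). Cebpb is also a hepatocyte gene, so its value in whole liver is not one of macrophages alone. Its age-by-genotype term in males was called as well, at -1.37 ± 0.23 (edgeR adjusted p = 0.0269). Of 13 pan-leukocyte and myeloid genes 1 was called, Ctss, the lysosomal protease cathepsin S, which fell by 0.71 ± 0.22 in 60-day females (31.1 ± 5.21 CPM in KO, 51.1 ± 11.5 in WT, edgeR adjusted p = 0.0471), with overlapping libraries.

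In the pathway of Cd14 and the toll-like receptors 11 of 13 listed genes were tested. The kinase gene Irak1 fell in 60-day KO females by 0.32 ± 0.06 (85.1 ± 5.26 CPM against 106.3 ± 5.87 in WT, edgeR adjusted p = 0.00248) without overlap, and the other 10 were not called in any pair. Of 6 tested genes of Csf1r ligands and signalling and 10 complement partners of C1q, 0 were called in any of the 4 pairs. The complement inhibitor Serping1 had a called age-by-genotype term in females, at -0.58 ± 0.13 (edgeR adjusted p = 0.0124). Of 9 tested cytokine and chemokine genes of activated macrophages 0 were called in any pair. Among 9 glucocorticoid-induced genes Klf9 and Zbtb16 were lower in 60-day KO females, Zbtb16 by 1.93 ± 0.37 on the log2 scale (edgeR adjusted p = 0.00223).

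Age gave the clearest change of any member. Marco fell between 30 and 60 days in both sexes and both genotypes. In WT females it stood at 119, 71.4, 124 and 123 CPM at 30 days and at 21.9, 41.0, 90.3 and 25.7 CPM at 60 days. Replicate 3 at 60 days lay inside the 30-day range and the other 3 lay below it, and Marco fell by 1.29 ± 0.40 on the log2 scale (edgeR adjusted p = 0.0138). In KO females it stood at 140, 117, 67.1 and 118 CPM at 30 days and at 24, 21.7, 29 and 24.4 CPM at 60 days. These groups did not overlap, and Marco fell by 2.16 ± 0.41, or 4.46-fold (edgeR adjusted p = 0.000335).

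In WT males Marco stood at 162, 100.04, 49.2 and 122 CPM at 30 days and at 45.6, 44.2, 43.0 and 37.4 CPM at 60 days. The ranges did not overlap, and it fell by 1.34 ± 0.40 (edgeR adjusted p = 0.0112). In KO males it stood at 158.5, 158.7, 119 and 85.2 CPM at 30 days and at 20.8, 83.3, 64.4 and 58.6 CPM at 60 days. Again the ranges did not overlap, and it fell by 1.197 ± 0.39 (edgeR adjusted p = 0.024). Over all libraries the 16 of 30 days ran from 49.2 to 162 CPM, and 4 of the 16 of 60 days lay above the lowest of them. Averaged over the 4 pairs Marco fell by 1.496 ± 0.20, or 2.82-fold (edgeR adjusted p = 6.24e-07), and that call held in each of the 32 fits that left out 1 library and in 7 of 7 other settings.

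Within single pairs the Marco call was less firm. In WT females it was lost without 60-day replicate 1 (adjusted p = 0.0533), without 60-day replicate 4 (0.0525) and with the 8 libraries compared alone (0.0799), all by edgeR. In WT males it was lost without 30-day replicate 1 (edgeR adjusted p = 0.0525). In KO males it was lost without 60-day replicate 1 (adjusted p = 0.085), without 30-day replicate 1 (0.0647), without 30-day replicate 2 (0.0623) and with the 8 libraries compared alone (0.0758), all by edgeR. In KO females it held in each of the 8 fits without 1 library. The age-by-genotype term for Marco was -0.87 ± 0.56 in females (edgeR adjusted p = 0.444) and 0.15 ± 0.55 in males (adjusted p = 1), so a different fall in KO and WT rats was not shown.

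Clec4f, the Kupffer cell lectin, moved in the other direction. In WT females it stood at 147, 115, 141 and 164 CPM at 30 days and at 220, 194, 228 and 224 CPM at 60 days. The groups did not overlap, and Clec4f rose by 0.61 ± 0.21 (edgeR adjusted p = 0.0235). In KO males it rose by 0.55 ± 0.21 (edgeR adjusted p = 0.045), with 60-day replicate 1 inside the 30-day range, and that call held in 2 of the 8 fits without 1 library. In KO females the change was 0.55 ± 0.21 (adjusted p = 0.055), without overlap, and in WT males 0.36 ± 0.21 (adjusted p = 0.198). Averaged over the pairs Clec4f rose by 0.52 ± 0.10 (edgeR adjusted p = 0.000125), and the call held in each of the 32 fits without 1 library and in 7 of 7 other settings.

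The ratio of Marco to Clec4f within a library was lower at 60 days on average, with overlap between the ages. Its group means were 0.68 to 0.83 at 30 days and 0.11 to 0.24 at 60 days. The lowest 30-day library was at 0.38 and the highest 60-day library, WT female replicate 3, at 0.40. That library apart, the 60-day ratios were at most 0.32. The ratio compares the same 2 genes across libraries, and its size says nothing of which transcript is the more abundant, since their lengths differ.

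Cd14, the lipopolysaccharide co-receptor, rose with age in females. WT females stood at 28.5, 25.9, 33.1 and 31.2 CPM at 30 days and at 47.7, 73.7, 44.0 and 71.1 CPM at 60 days. The groups did not overlap, and Cd14 rose by 1.00 ± 0.27 (edgeR adjusted p = 0.00612). In KO females it rose by 0.77 ± 0.27 (edgeR adjusted p = 0.0438), with 60-day replicate 1 at 34.1 CPM inside the 30-day range. That call ended in 6 of the 8 fits without 1 library, with adjusted p up to 0.148. In males the changes were 0.34 ± 0.27 in WT and -0.15 ± 0.27 in KO, and neither passed the test. Between rats of the same group Cd14 did not follow the other members, with r from -0.328 to 0.101. Which cells the rise of Cd14 came from was not tested.

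The C1q genes rose with age in WT females. C1qa stood at 90.5, 68.9, 77.2 and 91.3 CPM at 30 days and at 94.7, 119, 153 and 118 CPM at 60 days. Every 60-day library lay above every 30-day one, and C1qa rose by 0.57 ± 0.18 (edgeR adjusted p = 0.0187). C1qb rose by 0.49 ± 0.17 (adjusted p = 0.0288) and C1qc by 0.52 ± 0.19 (adjusted p = 0.0297), both by edgeR and both without overlap between the ages. Without 60-day replicate 3 the calls were lost, at adjusted p of 0.0869, 0.118 and 0.123 for C1qa, C1qb and C1qc (edgeR). In the other 3 pairs the changes of the C1q genes ran from 0.08 to 0.24 and none passed the test.

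In all, 6 of 10 members were called with age in WT females (33.1% of all genes tested), 2 of 10 in KO females (22.7%), 1 of 10 in WT males (31.5%) and 2 of 10 in KO males (28.4%). In the mean of the 4 pairs, chosen after seeing the data, 6 of 10 were called, where 53.1% of all genes were. Of those, Marco was lower and Cd68, Clec4f, Cd14, C1qa and C1qc were higher, with Cd68 at 0.28 ± 0.12 (edgeR adjusted p = 0.0443), C1qa at 0.26 ± 0.09 (0.018) and C1qc at 0.26 ± 0.09 (0.0195). The Cd68 call held in 12 of the 32 fits without 1 library. Under upper-quartile scaling the calls of Cd68, C1qa and C1qc ended, with adjusted p of 0.0924, 0.0513 and 0.0551. Csf1r was level with age, at 0.02 ± 0.11, and Cd163 was at -0.19 ± 0.12 (adjusted p = 0.211).

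**Figure D3:**
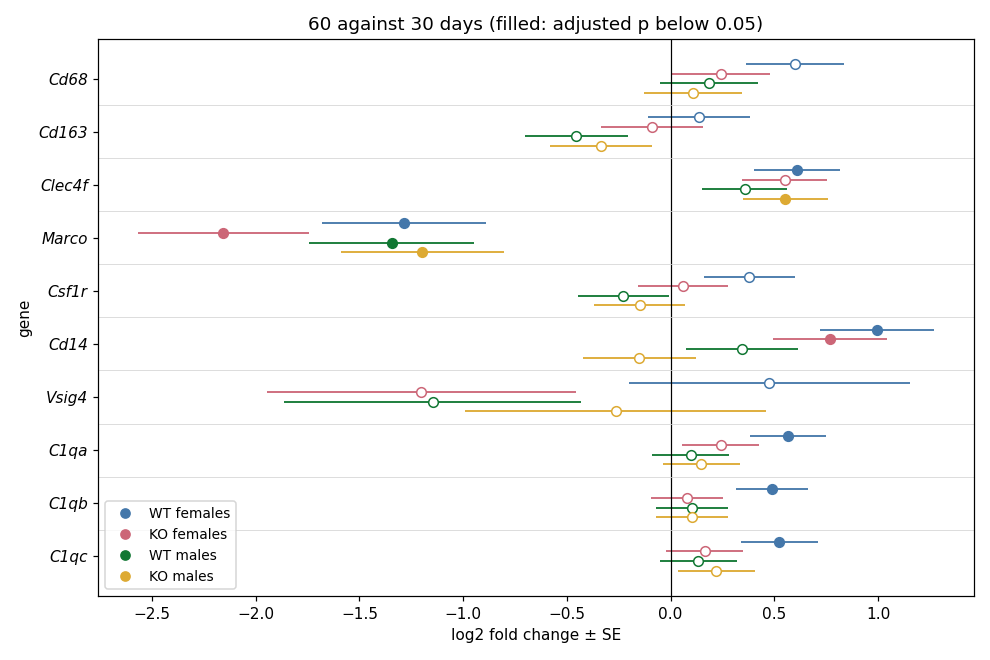
Log2 fold change of 60 against 30 days (horizontal axis, with its SE) for each member in the 4 pairs of sex and genotype, with filled points for an adjusted p below 0.05. Marco is the member with a filled point in every pair, between -2.16 and -1.197, and the other filled points lie to the right of 0.

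The age comparison also changed the rest of the liver, which bears on shares of messenger RNA. All 8 proliferation genes fell in each of the 4 pairs, with summed levels of 65.4 to 277 CPM at 30 days and 2.54 to 23.7 CPM at 60 days. All 8 tested stellate cell and fibroblast markers, all 4 cholangiocyte markers and 4 of 7 endothelial markers were lower in the mean of the 4 pairs. In that mean 53.1% of all genes tested were called, with 2948 of the 11002 lower and 2889 higher. Of the endothelial markers, the scavenger receptor Stab2 fell in WT females from 80.6 ± 16.0 to 42.7 ± 7.77 CPM (edgeR adjusted p = 0.000502). Of 7 tested lymphocyte markers 6 were higher, and the summed level of the 11 such markers in the table ran from 11.3 to 30.6 CPM at 30 days and from 17.9 to 36.6 CPM at 60 days. The part of these other cells in the members' age changes was not tested.

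Of the 10 other Kupffer cell genes 2 rose and 3 fell in the mean of the 4 age pairs, with a median of -0.05. These 5 of 10 are near the 53.1% of all genes called in that mean. Cd5l, a secreted macrophage survival factor, fell in KO females from 140.8 ± 19.98 to 75.8 ± 18.8 CPM, by 0.89 ± 0.27 on the log2 scale (edgeR adjusted p = 0.0159). It fell in KO males by 0.77 ± 0.27 (adjusted p = 0.0301), both without overlap. Adgre1 rose in WT females from 17.8 ± 3.31 to 31.7 ± 3.00 CPM, by 0.83 ± 0.20 (edgeR adjusted p = 0.00193), without overlap.

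Of 10 macrophage transcription factors 4 rose and 1 fell in the mean of the pairs, again near the share of 53.1% over all genes, beside which the counts for complement and cytokine genes below also stand. Nr1h3, encoding LXR-alpha, rose in all 4 pairs by 0.31 to 0.39, and hepatocytes express it too. Spi1, encoding PU.1, was level at -0.05 ± 0.13 in the mean of the pairs. Of the 10 complement partners of C1q, which hepatocytes make for the most part, 8 rose and 0 fell. Serping1, encoding the C1 inhibitor, rose in WT females from 456 ± 68.2 to 971 ± 19.4 CPM (edgeR adjusted p = 2.67e-10). Of 9 tested cytokine and chemokine genes 2 rose and 1 fell, and Il1b rose in WT females from 3.21 ± 0.39 to 5.03 ± 0.51 CPM (edgeR adjusted p = 0.0221).

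Sex was compared because the adult rat liver is dimorphic. At 30 days 0 of 10 members differed between males and females in WT (2.07% of all genes) or in KO rats (2.24%), with 0 members at an unadjusted p below 0.05 in both and 0 called by DESeq2 or limma-voom. At 60 days 3 of 10 were lower in WT males than in WT females, where 26.4% of all genes were called and 12.7% were called lower. They were Csf1r, C1qa and C1qb. All 10 members had a negative change in that pair, with a median of -0.50 beside 0.00 over all genes. In 60-day KO rats 8 of 10 did, with a median of -0.16 beside -0.02 over all genes. The changes of the 10 members are not independent, since the members vary together between libraries.

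Csf1r, the growth factor receptor of the lineage, stood at 74.8, 78.2, 121.8 and 78.6 CPM in 60-day WT females and at 53.3, 63.1, 49.8 and 47.9 CPM in WT males. The sexes did not overlap, and Csf1r was lower in males by a log2 fold change of -0.72 ± 0.22 (edgeR adjusted p = 0.0153). C1qa was at -0.59 ± 0.19 (adjusted p = 0.0183) and C1qb at -0.55 ± 0.17 (adjusted p = 0.018), both by edgeR and without overlap. All 3 calls were lost without WT female replicate 3, the library with the highest members, at edgeR adjusted p of 0.0938, 0.0922 and 0.0867. Without it the log2 fold changes were -0.53, -0.46 and -0.44.

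In 60-day KO rats 1 of 10 members differed by sex (18.5% of all genes), Marco, which was higher in males by 1.199 ± 0.41 (edgeR adjusted p = 0.0391). KO females stood at 24, 21.7, 29 and 24.4 CPM and KO males at 20.8, 83.3, 64.4 and 58.6 CPM. Of the males, 3 lay above all females and replicate 1 below them. The call ended in 7 of the 8 fits without 1 library, with adjusted p up to 0.141. In the mean of both genotypes at 60 days, chosen after seeing the data, 3 of 10 members were lower in males, where 35.1% of all genes were called and 17.3% were called lower. Csf1r was at -0.50 ± 0.16 (edgeR adjusted p = 0.0141), C1qa at -0.45 ± 0.13 (0.00809) and C1qb at -0.36 ± 0.12 (0.0238).

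Of the 10 other Kupffer cell genes 3 were lower and 0 higher in WT males than in WT females at 60 days, where 26.4% of all genes were called. In KO rats 1 was lower and 0 higher, where 18.5% were called. Adgre1 was lower in WT males, 18.7 ± 4.23 against 31.7 ± 3.00 CPM (edgeR adjusted p = 0.00544), and Cd5l 74.6 ± 6.24 against 135.9 ± 58.6 CPM (adjusted p = 0.0166). The iron exporter gene Slc40a1 was lower in WT males, 17.1 ± 0.93 against 41.3 ± 6.97 CPM (edgeR adjusted p = 5.13e-09), and in KO males, 20.97 ± 3.03 against 37.2 ± 4.02 CPM (adjusted p = 1.16e-05). Hepatocytes express Slc40a1 as well. Of 6 genes of Csf1r ligands and signalling 1 was lower and 0 higher in WT males, and 0 were called in KO rats. It was Csf1, the ligand of Csf1r, at 7.14 ± 0.49 against 9.51 ± 1.48 CPM (edgeR adjusted p = 0.0466). In WT males of 60 days the summed pan-leukocyte genes ran from 210 to 220 CPM and in WT females from 258 to 303 CPM, and their part in the sex difference was not tested.

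The 8 groups were also put in order of mean level for each member. For Cd68, Cd163, Csf1r, C1qa, C1qb and C1qc 0 of the 7 steps between neighbouring groups exceeded the spread (means apart by more than the larger SD). Neighbours in a sorted order lie close, so these steps cannot show how far other groups stood apart. Csf1r, C1qa and C1qb did not overlap between 60-day WT females and males. The highest group was 60-day WT females for Cd68, Csf1r, Cd14, Vsig4 and all 3 C1q genes. It was 30-day KO males for Cd163 and Marco, and 60-day KO females for Clec4f. The range of group means was 1.49-fold for C1qc, 2.13-fold for Cd14, 4.43-fold for Vsig4 and 5.27-fold for Marco.

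The members varied together between rats of the same group. Deviations of log2 levels from the 8 group means were correlated over the 32 libraries, as a description, since all points share the libraries and their scaling. Without Cd14 and Vsig4 the 28 pairs of members had Pearson's r from 0.669 to 0.975, with a median of 0.849. The closest pair was C1qb and C1qc, at 0.975 (Spearman's coefficient 0.951, and r 0.960 without the 2 libraries farthest out). C1qa and C1qc stood at r 0.968 (Spearman's 0.941). Cd68 and C1qc followed at r 0.951 (Spearman's 0.925), Cd163 and Csf1r at r 0.943 (Spearman's 0.927) and C1qa and C1qb at r 0.941 (Spearman's 0.907). Clec4f and Marco had the lowest of the 28, at r 0.669 (Spearman's 0.649), which dropped to 0.458 without the 2 farthest libraries.

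Cd14 did not follow the rest. Its r with the other 9 members ran from -0.328 to 0.101. The largest negative values were those with Vsig4 (Spearman's -0.227) and Cd163 (r -0.295, Spearman's -0.347). The genes most like Cd14 within groups were Nop10, Ndufb7 and Txn2, at r 0.781, 0.765 and 0.764, picked for those values and given with no test. Vsig4 followed the members other than Cd14 loosely, with r from 0.260 for Cd68 to 0.457 for Marco.

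**Figure D4:**
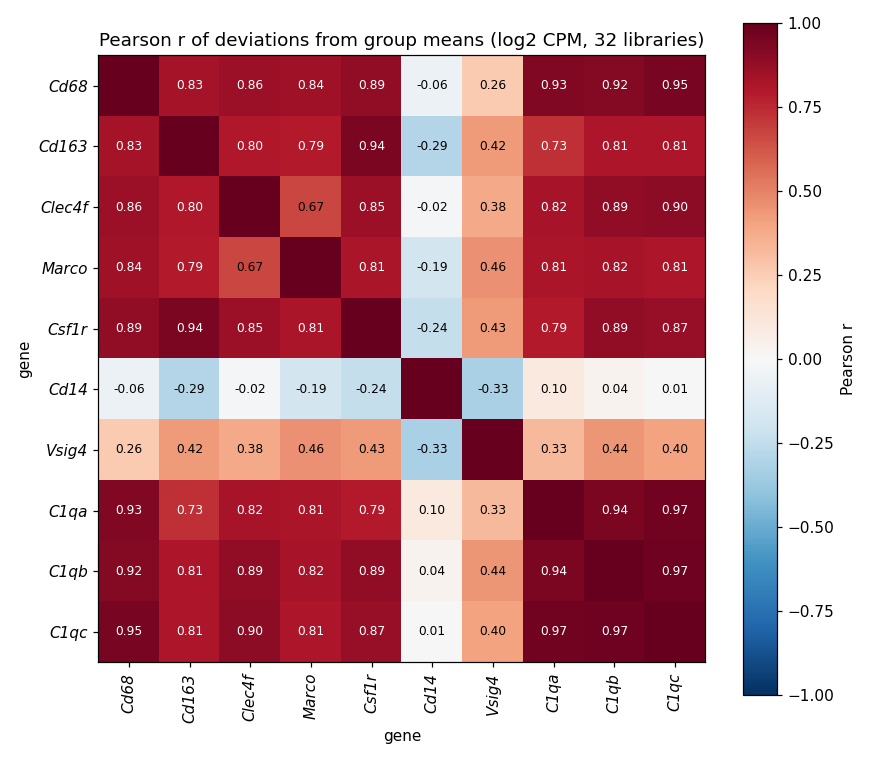
Pearson's r between members for deviations of log2 CPM from the 8 group means over 32 libraries, with red for positive and blue for negative values. Pairs with Cd14 and Vsig4 are pale against the other 8 members, whose pairs run from 0.669 to 0.975.

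The members' mean deviation was set beside that of other lists in the same way. It ran with the 13 pan-leukocyte and myeloid genes (r 0.917, Spearman's 0.843) and with the 10 other Kupffer cell genes (r 0.898, Spearman's 0.806). It followed the 10 macrophage transcription factors (r 0.758, Spearman's 0.637), the 7 lymphocyte markers (r 0.720, Spearman's 0.646) and the 7 endothelial markers (r 0.614, Spearman's 0.591) less closely. Without the 2 farthest libraries these were 0.848, 0.811, 0.670, 0.547 and 0.462. Hepatocyte markers (r -0.111), glucocorticoid-induced genes (r 0.009) and erythroid markers (r -0.016) showed little relation, nor did gene reads per library (r 0.044). So the libraries with high macrophage markers also had higher lymphocyte and endothelial markers within their group, and the part of tissue sampling in this was not tested.

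The non-member genes most like the members were ranked by their correlation with the members' mean. Over all 32 libraries the 8 closest to the members' mean were Laptm5, Ccl6, Itgb2, Pld4, Rac2, Cfp, Fcer1g and Axl, with r from 0.870 to 0.897. For deviations from group means they were Cfp, Ctss, Ifitm1, Ccl6, Tyrobp, Lgmn, Napsa and Unc93b1, with r from 0.912 to 0.958. Cfp encodes properdin of the complement system, Tyrobp and Fcer1g signalling adaptors, and Ctss and Lgmn lysosomal proteases. The lists were ranked over the 11002 genes tested, with no test of likeness.

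Vsig4 was the most variable member. Its level ran from 1.17 CPM, in 30-day KO male replicate 4, to 45.5 CPM, in 60-day WT female replicate 3, a 38.8-fold range with 24 to 698 reads. Its biological coefficient of variation was 0.698, at the 99.3rd percentile of all genes, against 0.170 to 0.379 for the other members. Low and high libraries stood side by side within groups. The 30-day KO males were at 25.7, 2.40, 24.1 and 1.17 CPM, with replicates 2 and 4 far below the others.

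The gene that ran most strongly against Vsig4 within groups was Heph, hephaestin, a copper-dependent iron oxidase. Its r with Vsig4 was -0.743 (Spearman's -0.726, and r -0.668 without the 2 farthest libraries), the most negative of the 11002 genes and given with no test, since it was picked for that value. Apeh and Tkfc came close behind, at r -0.713 and -0.698, and the most positive was Foxo4, at r 0.639. In the 30-day KO males just named Heph stood at 2.44, 7.91, 2.47 and 6.93 CPM, high in the 2 libraries where Vsig4 was low. In 60-day WT females Heph stood at 8.35, 2.29, 2.34 and 2.08 CPM, high in the 1 library where Vsig4 was low. Heph and Vsig4 lie on chromosome X, and their spans overlap in the RefSeq gene table of GRCr8, on opposite strands. The strand setting and the gene annotation of the authors' counting are unknown here. The Vsig4 counts are therefore uncertain by whatever reads the 2 genes share, and the part of this in the Vsig4 differences was not tested.

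**Figure D5:**
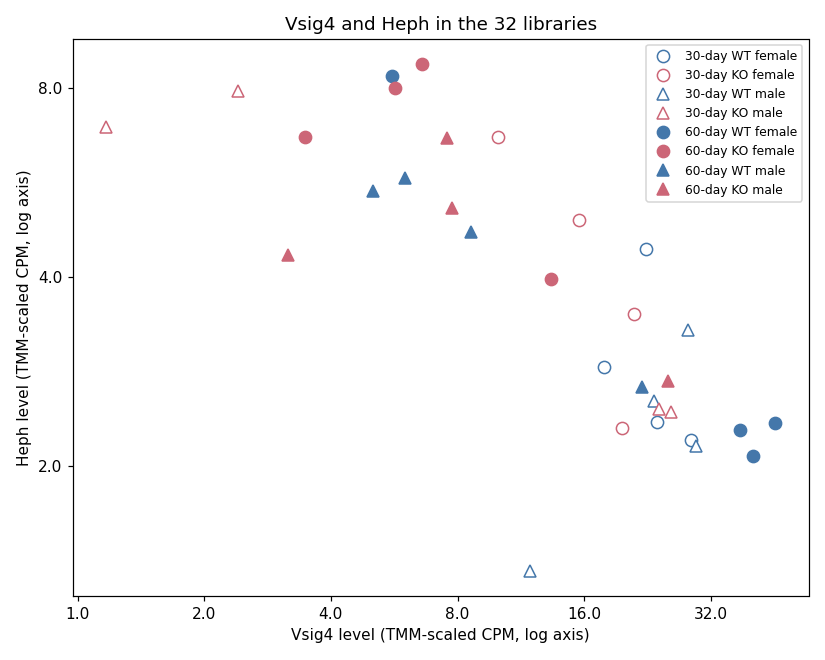
Level of Heph against Vsig4 (TMM-scaled CPM, both axes logarithmic) in the 32 libraries, with open symbols for 30 days, filled for 60 days, circles for females, triangles for males, blue for WT and red for KO. High Vsig4 goes with low Heph, and libraries of one group appear at both ends.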

How the data were processed

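Liver messenger RNA of 32 rats was sequenced from stranded libraries, per the labels' protocols. The authors deposited raw read counts per gene and, in a second table, log2 CPM values for 11344 genes. The submitters' processing notes name STAR, Cufflinks, limma and the build Rnor_5.0, with no role or version. The counter, its strand setting and its annotation were not stated. The deposited log2 values equalled log2 CPM recomputed from the counts without scaling between libraries. Lines that name no gene were left out; reads on no feature were 18.0% to 21.2% and ambiguous reads 0.262% to 0.648%.

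The counts were fitted in edgeR 4.0.16 (R 4.3.3) with TMM scaling, filterByExpr at a minimum count of 10, 8 group means and robust quasi-likelihood over all 32 libraries (24 residual degrees of freedom). P-values were adjusted by Benjamini-Hochberg over the 11002 genes tested, and genes below 0.05 are called. To the 16 contrasts the labels imply, 3 averages were added after seeing the data. DESeq2 1.42.0, limma-voom and limma on the deposited log2 values (limma 3.58.1), other scalings, no filter, fewer libraries, a title-number covariate at 30 days and leaving out each library were alternatives. In simulated data for KO against WT in 60-day females, over 10907 genes, genes drawn at random from all those tested were changed. Of those changed 1.5-fold, 2-fold and 4-fold, 60.9%, 92.5% and 95.5% were recovered, with 5 false calls. The members varied more than the common biological coefficient of variation of 0.148, at 0.170 to 0.698. The recovered shares are therefore not those of the members. Correlations used log2 CPM with a prior count of 2. Figures and correlations were made in Python (scipy 1.17.1, pandas 2.3.3, numpy 2.4.6, matplotlib 3.10.9).

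The members and gene lists were chosen with earlier results of these data known. Named from other lists are genes called in any genotype contrast or interaction and, in each sex or age contrast, up to 3 called genes with the smallest adjusted p, besides a few given as context after their values were seen. Where separate animals are not stated for the libraries of a group, p-values measure the spread between these samples. Replicate numbers were given in accession order and pair no animals. Some items are not reported here.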

Additional observations from a re-analysis of the deposited data

Results flagged for a closer look

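In 88 groups of 4 libraries (the 10 members and their summed level in 8 groups), 8 held 1 library far from the other 3, by Dixon's test at its 95% critical value on log2 CPM. Chance gives about 5% of groups, but the 88 are not independent, since the members vary together and the sum is made of them. The count is therefore not a test for an excess of such libraries. In 60-day WT females replicate 3 was high for Cd68, at 40.7 CPM against 24.4 to 26.6 in the others. It was high for Csf1r too, at 121.8 CPM against 74.8 to 78.6. In the same group replicate 1 was low for Vsig4, at 5.59 CPM against 37.4 to 45.5. In 60-day KO males replicate 1 was low for Clec4f, at 138.5 CPM against 245.5 to 262, and for C1qb, at 45.1 against 69.0 to 73.2. Its summed level of the members was 436 CPM against 749 to 798. In 30-day KO females replicate 1 was high for Cd163, at 68.7 CPM against 46.6 to 47.3. In 30-day WT females replicate 2 was low for Marco, at 71.4 CPM against 119 to 124.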

How the results depend on the processing

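Of the single members called in the edgeR fit of all 32 libraries, none reversed its direction under any alternative. For those called only under an alternative, a reversal was counted only in fits that called them, and none was found. KO against WT gave 0 members in every pair and alternative except 60-day females, with 1 under DESeq2 and 0 to 1 when 1 library was left out. Male against female in 60-day WT rats gave 3, 5 with the 8 libraries compared alone, and 0 to 4 without 1 library. In 60-day KO rats it gave 1, and 0 under limma-voom, under limma on the deposited values, and with 16 or 8 libraries, with 0 to 1 without 1 library. The 60-day mean over genotypes gave 3, and 3 to 4 without 1 library. With age, WT females gave 6, 2 on the deposited values, and 2 to 7 without 1 library. KO females gave 2, 1 with no filter or on the deposited values, and 1 to 3 without 1 library. WT males gave 1, 0 to 2 without 1 library, and 3 with 30-day WT male replicate 3 and 60-day WT female replicate 3 both left out, a choice made after seeing the data. KO males gave 2, and 1 under upper-quartile scaling, no filter, limma-voom and the deposited values. With the 8 libraries compared they gave 0, and 0 to 1 without 1 library. The mean of the 4 age pairs gave 6, 3 under upper-quartile scaling, and 5 to 7 without 1 library. The causes were not tested. In that mean the deposited values, which have no scaling, moved the median of all genes to -0.17, and 18.7% of called genes were higher, beside 49.5% with TMM and 39.5% with upper-quartile scaling. For KO against WT over the 4 pairs the share higher was 78.1% on the deposited values and 44.0% with TMM. No paired analysis was possible because replicate numbers came from accession order and tie no rats together. Depth limits Vsig4 most, with as few as 24 reads in a library, while the other members had at least 186.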
